A study of Mus musculus with 42 samples.

Results

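Among 14 forestomach arrays of a mouse gavage study, 5 arrays carried little signal from the acid- and pepsinogen-secreting glands of the stomach, and the 9 others carried a great deal of it. The 5 arrays (mice 1, 4, 11, 16 and 20) were selected on measured values: each array was scored by the mean log2 ratio of Gkn1, Gkn2, Tff1, Atp4a and Atp4b, and the 5 lowest scores were set against the 9 others regardless of dose. The sets are called low-score and high-score arrays below. They are 14 of the 42 arrays of the series, which came from 15 mice. Because these arrays chose the sets, every difference in gene level between the 5 and the 9 in forestomach is a description with no test. Tests were kept to dose group, slide, array-wide signal, other organs and the response to treatment.

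The animals were adult male Muta™Mouse, a transgenic strain carrying a bacterial reporter gene for mutation assays, about 11 weeks old. They were gavaged for 28 days with olive oil alone (D0) or with the polycyclic aromatic hydrocarbon benzo(k)fluoranthene (BkF) at 25 (D1), 50 (D2) or 100 (D3) mg per kg body weight per day, and tissue was taken 72 h after the last dose. The low-score set held 2 D0, 1 D2 and 2 D3 mice, and the high-score set held 2 D0, 3 D1, 3 D2 and 1 D3 mice. RNA came from a piece of each organ and was hybridized in the red channel (Cy5) beside a reference RNA pooled from mouse cell lines in the green channel (Cy3), without dye swaps. A value is therefore a log2 ratio of sample to reference, normalized within the array by loess. A ratio near 0 can also mean that neither RNA gave signal, so the number of arrays on which a probe was well above background is given where it matters. Between 28.1% and 46.0% of probes were well above background on the low-score arrays and between 30.3% and 45.4% on the high-score arrays.

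The rodent stomach has a forestomach lined by keratinizing squamous epithelium, like skin or esophagus, and a glandular stomach lined by a simple columnar epithelium. In the glandular part, pit cells make protective mucus and gastrokines, neck cells make a second mucus, parietal cells pump acid, chief cells release pepsinogen, and scattered endocrine cells release hormones and histamine. The border between the parts is a visible ridge, and genes of the glands are not a feature of squamous lining. In such bulk RNA, fewer cells of a type and less RNA per cell cannot be told apart.

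The gastrokines Gkn1, Gkn2 and Gkn3 lie near each other on chromosome 6, and all were lower in the low-score set, so the stretches before their start sites are shown. Each run holds the 250 bases before the start in RefSeq's promoter table (GRCm38.p6), written 5′ to 3′ on the gene's strand. Capitals mark the letters GATAAG on that strand or their reverse complement CTTATC, which is the core of many binding motifs of GATA factors.
Gkn1 (chr6:87350916-87351165, minus strand): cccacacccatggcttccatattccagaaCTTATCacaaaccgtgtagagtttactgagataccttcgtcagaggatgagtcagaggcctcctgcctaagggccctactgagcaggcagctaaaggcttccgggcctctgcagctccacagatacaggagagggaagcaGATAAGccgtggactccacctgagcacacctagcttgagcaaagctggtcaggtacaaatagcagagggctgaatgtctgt
Gkn2 (chr6:87373115-87373364, plus strand): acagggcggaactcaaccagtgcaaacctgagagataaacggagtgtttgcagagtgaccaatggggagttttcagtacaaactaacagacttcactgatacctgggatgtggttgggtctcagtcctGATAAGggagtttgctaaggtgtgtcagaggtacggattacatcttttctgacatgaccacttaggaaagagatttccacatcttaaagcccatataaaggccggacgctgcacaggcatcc
Gkn3 (chr6:87388936-87389185, minus strand): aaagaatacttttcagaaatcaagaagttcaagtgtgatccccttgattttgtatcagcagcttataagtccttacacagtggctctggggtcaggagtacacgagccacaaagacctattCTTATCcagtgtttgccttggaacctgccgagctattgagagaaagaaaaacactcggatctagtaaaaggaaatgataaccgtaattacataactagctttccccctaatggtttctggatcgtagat
The letters began 221 and 81 bases before the start of Gkn1, 122 before that of Gkn2 and 129 before that of Gkn3. They were present in 6.55% of all 32851 such windows. Of the listed genes with a window, they were in 2 of 5 windows of pit-cell genes, 1 of 4 of neck-cell genes, 2 of 19 of parietal-cell genes and 3 of 9 of chief-cell genes. The pit-cell windows with a match were those of Gkn1 and Gkn2, and the neck-cell window was that of Gkn3. These genes were picked to be shown, and Gkn1 and Gkn2 were also scored. The pit and neck shares are therefore not read against that of all windows. These matches are a description of letters. The genes of 2 GATA factors, Gata4 and Gata6, were lower in the low-score set, with differences of -2.34 and -2.49 log2 units. In the list of gastric and endoderm transcription factors, 11 of 16 genes were lower. A link between the GATA factors and the gastrokines was not tested.

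The scores of the low-score arrays were 0.84 (mouse 1), 1.25 (mouse 4), 1.63 (mouse 16), 2.13 (mouse 20) and 2.46 (mouse 11). The next array was mouse 13 at 5.02, and the other high-score arrays lay between 5.79 (mouse 17) and 6.46 (mouse 15). The gap between the sets was thus 2.56 log2 units, and the same 5 arrays were lowest under each other processing tried. The 5 genes behind the score did not behave alike. Atp4b, the beta subunit of the gastric proton pump, read -0.08, -0.01, 0.47, 0.01 and 0.08 in mice 1, 4, 16, 20 and 11, against 5.41 to 6.26 (median 5.95) in the high-score set. Its catalytic partner Atp4a read 0.01, -0.24, 0.17, -0.28 and -0.01 in the same order, against 3.85 to 6.39 (median 5.73). Both pump subunits were well above background on 0 of 5 low-score and 9 of 9 high-score arrays.
Gkn2 was graded across the low-score arrays. It read 0.94, 2.30, 2.77, 5.43 and 6.13 in mice 1, 4, 16, 20 and 11, and 7.35 to 8.15 (median 7.89) in the high-score set. Tff1, a trefoil peptide of pit-cell mucus, followed the same order at 2.86, 4.08, 4.10, 5.17 and 5.32, and overlapped the high-score set at 5.10 to 5.99 (median 5.55). Both were well above background on 5 of 5 low-score arrays.

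**Figure D1:**
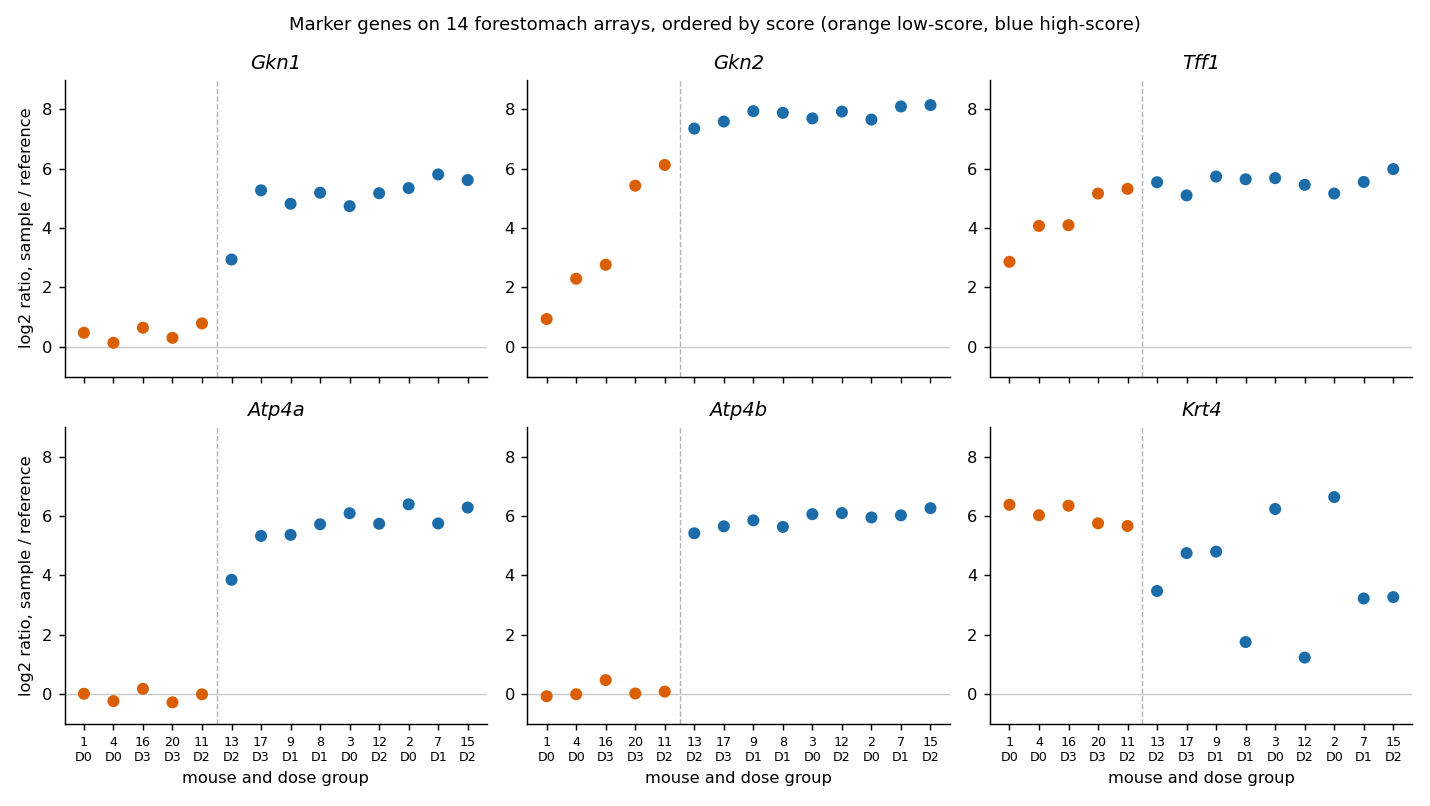
Log2 ratio of sample to reference for the 5 scored genes and Krt4 (vertical axes) on each forestomach array, ordered by score (horizontal axes, mouse and dose group), with a dashed line between the 5 low-score arrays (orange) and the 9 high-score arrays (blue). Atp4a and Atp4b lie near 0 on all 5 low-score arrays, while Gkn2 climbs from 0.94 to 6.13 among them and Krt4 is as high in high-score mice 2 and 3 as in the low-score set.

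The overlap of Tff1 lay in the ratio and not in the sample channel. Before normalization its log2 Cy5 signal ran from 7.79 to 13.53 (median 9.85) on the low-score arrays and from 15.55 to 17.93 (median 16.98) on the high-score arrays, with no overlap. The Cy3 channel, which held the same reference RNA on every array, was also brighter at this probe, at 6.34 to 10.31 on the low-score arrays against 13.33 to 14.17 on the high-score arrays. Atp4b showed the same, with Cy3 signals of 5.07 to 5.63 against 10.48 to 11.84. Log ratios of these very bright probes therefore understate the difference in the sample channel. Of the 520 genes counted as lower further on, 80 had a mean Cy3 signal at least 1 log2 unit dimmer on the low-score arrays, and 37 were well above background in Cy3 on all high-score and on 0 low-score arrays. Over all kept genes the median Cy3 difference was 0.01. The origin of this Cy3 signal was not tested.

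**Figure D2:**
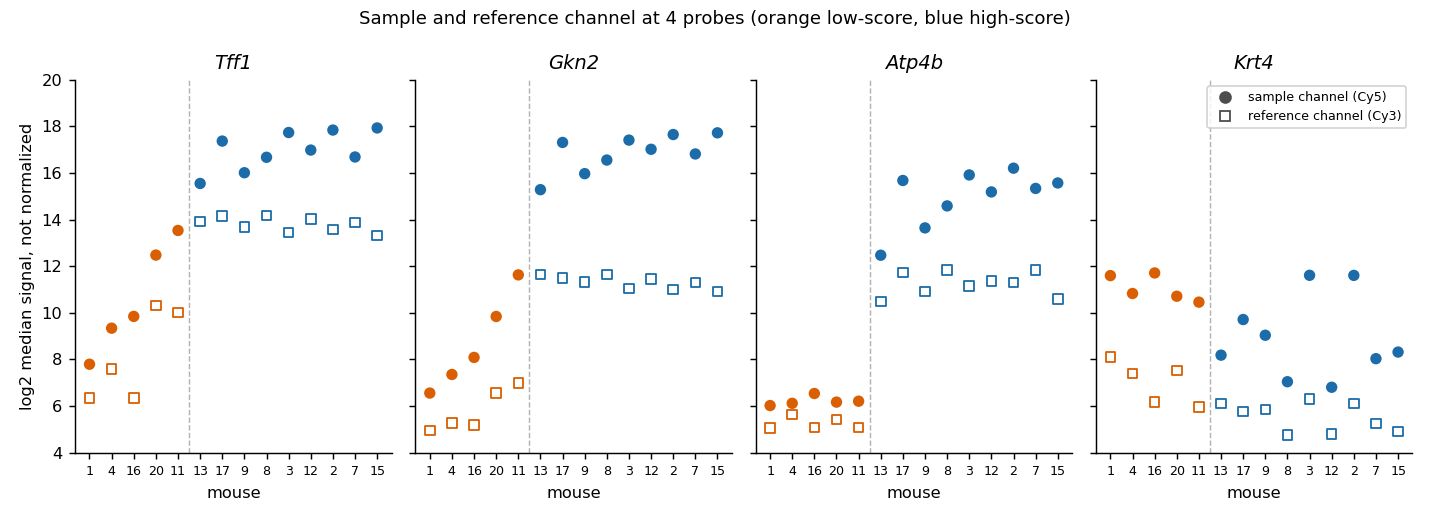
Log2 median signal before normalization (vertical axis) of the Cy5 sample channel (filled circles) and the Cy3 reference channel (open squares) at the probes of Tff1, Gkn2, Atp4b and Krt4, by mouse in order of score (horizontal axes; orange low-score, blue high-score). Both channels are brighter in the high-score set at the gastric probes, by more than their spread, whereas at Krt4 the Cy5 signals of the sets overlap.

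The name "without glandular stomach" held in part for the low-score arrays. The defining products of parietal and chief cells were at background there. Cblif (gastric intrinsic factor) read 0.03, 0.08, 0.31, 0.23 and 0.11 in mice 1, 4, 16, 20 and 11, against 6.88 to 8.29 (median 7.81). Pgc (pepsinogen C) read -0.19 to 0.24, against 4.15 to 5.06 (median 4.59). Neither was well above background on any low-score array, so both passed the filter on dim probes only through the high-score arrays. The pump genes Atp4a and Atp4b helped to choose the sets, so their low values are no support for the name.
Pit-cell genes remained in part. Muc5ac, the main gel-forming mucin of pit cells, was well above background on 5 of 5 low-score arrays at 0.53 to 2.12, below the high-score range of 4.64 to 6.14. Mucl3 (a mucin-like protein) stood at 1.73 and 3.18 in mice 20 and 11 and at -0.20 to 0.53 in the other low-score mice. Psca, a surface antigen of gastric epithelium, stood at 1.54 in mouse 11 and at 0.00 to 0.25 in the others. Gkn2, Tff1 and Mucl3 were thus higher in mice 11 and 20 than in mice 1, 4 and 16, whereas Muc5ac was higher in mouse 16 (1.45) than in mouse 20 (1.33). In mice 11 and 20 Atp4a, Atp4b, Kcne2, Cblif, Pgc and Chia1 were not well above background.

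Of 13360 genes kept after the filter on dim probes, 520 (3.89%) were lower in the low-score set, by at least 1 log2 unit and with no overlap between the sets, and 33 (0.247%) were higher. The median difference over all kept genes was 0.03. At a difference of 2 log2 units or more the counts were 266 and 0. Of the 520 lower genes, 461 were well above background on all 9 high-score arrays and 157 on 0 of 5 low-score arrays; these 157 passed the filter through the high-score arrays alone. The count of higher genes was 77 without mouse 2, 69 without mouse 3, 50 without mouse 1, 110 with the software's ratios and 132 with slide as a block.

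The 12 genes with the most negative mean differences in log ratio are named here. Of these, Cblif, Chia1, Vsig1, Mogat1, Pdia2 and Kcne2 were not well above background on any low-score array. Anxa10 and Tspan1 were well above it on 2 of 5 and Agr2, Sult1c2 and Ctse on 1 of 5. The sizes of these differences therefore depend on the background signal, and nothing is read from their order. Anxa10, an annexin of gastric mucosa, read 0.04, 0.19, 0.16, 1.03 and 2.29 in mice 1, 4, 16, 20 and 11, against 7.92 to 9.93 (median 9.09), a mean difference of -8.35. Mice 20 and 11 were the highest low-score arrays for Anxa10, as for Gkn2. Cblif and Chia1 (acidic mammalian chitinase) differed by -7.48 and -7.32. In the Cy5 sample channel before normalization, where the low-score arrays gave only a bound, Cblif was at least 305-fold, Chia1 at least 229-fold, Atp4b at least 390-fold and Pgc at least 415-fold lower. The bound takes, on each low-score array, the lowest signal among probes well above background or the probe's own, whichever is higher. After loess and quantile scaling of the channel between arrays the bounds were 910, 653, 1178 and 1263, so their size depends on the scaling. They are open to dye bias, since no dye swap was made.
The others were Tspan1 (a tetraspanin, -7.15), Vsig1 (a gastric junction protein, -6.83), Mogat1 (monoacylglycerol acyltransferase, -6.55), Agr2 (a mucin-folding disulfide isomerase, -6.25), Sult1c2 (a sulfotransferase, -6.24), Ctse (cathepsin E, -6.16), Pdia2 (-6.13), Clps (colipase, -5.96) and Kcne2 (the beta subunit of the parietal potassium channel, -5.93). Clps was well above background on all 5 low-score arrays.

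Lower genes were found in every glandular list. Some members passed the filter only through the high-score arrays, where they had to be high, so the counts are a description. Of the genes named below, A4gnt, Cftr, Kcnj16, Esrrg, Pga5, Bhlha15, Sst, Spdef, Foxa2, Foxa3, Apoa1, Apoa4, Reg3g, Ttr and Prss2 were among those well above background on 0 of 5 low-score arrays and Tff2, Kcnq1, Hdc, Hnf4a, Sult1d1, Krt6a, Alb and Lct among those on 1, so the sizes of their differences also depend on the background signal. Among pit-cell genes 7 of 10 kept members were lower without overlap (median of the list -4.28), and Capn9, Tff1 and Gsdmc overlapped. A second Capn9 probe differed by -1.02 without overlap. Without the scored Gkn1, Gkn2 and Tff1 the count was 5 of 7 and the median -4.25. Neck-cell genes were lower in 3 of 4, with Gkn3 at -4.94, Tff2 (trefoil factor of neck mucus) at -4.77 and A4gnt at -1.01, and Cftr overlapped. Parietal genes were lower in 7 of 14 (median -2.33), and 6 of the 14 passed the filter only through the high-score arrays. Without the scored Atp4a and Atp4b the count was 5 of 12 and the median -1.66. The lower genes included Kcnq1 (the pore of the apical potassium channel, -5.33), Kcnj16 (-4.84) and Esrrg (an orphan nuclear receptor of parietal cells, -3.64), whereas Vegfb (-0.01) and Ckb (creatine kinase B, -0.05), which other cells also express, scarcely differed.
Chief-cell genes were lower in 6 of 8 (median -4.25), and 7 of the 8 passed only through the high-score arrays. The lower ones included Pga5 (pepsinogen A, -3.96) and Bhlha15 (the zymogen-granule factor Mist1, -2.12).
Endocrine genes were lower in 6 of 12 (median -1.39). Sst (somatostatin) read -0.09 to 0.07 on the low-score arrays and 2.09 to 4.37 (median 3.70) on the high-score arrays, so the sets were far apart. Chgb (secretogranin) differed by -3.65, Ghrl (ghrelin) by -2.51 and Hdc (histidine decarboxylase, the histamine enzyme of ECL cells) by -2.50. Gast (gastrin, the hormone of antral G cells) differed by 0.00 and was well above background on 1 low-score and 2 high-score arrays.
Simple-epithelium genes were lower in 10 of 14 (median -2.66), among them the keratins Krt19 (-5.32), Krt20 (-5.28), Krt18 (-5.18) and Krt8 (-4.82). Of the gastric and endoderm transcription factors, 11 of 16 were lower (median -2.49), including Spdef (-4.64), Foxa2 (-4.42), Foxa3 (-3.59) and Hnf4a (-3.53). Barx1 (-0.10), Sox2 (0.55) and Klf5 (0.19), factors also used outside the glands, overlapped between the sets.

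**Figure D3:**
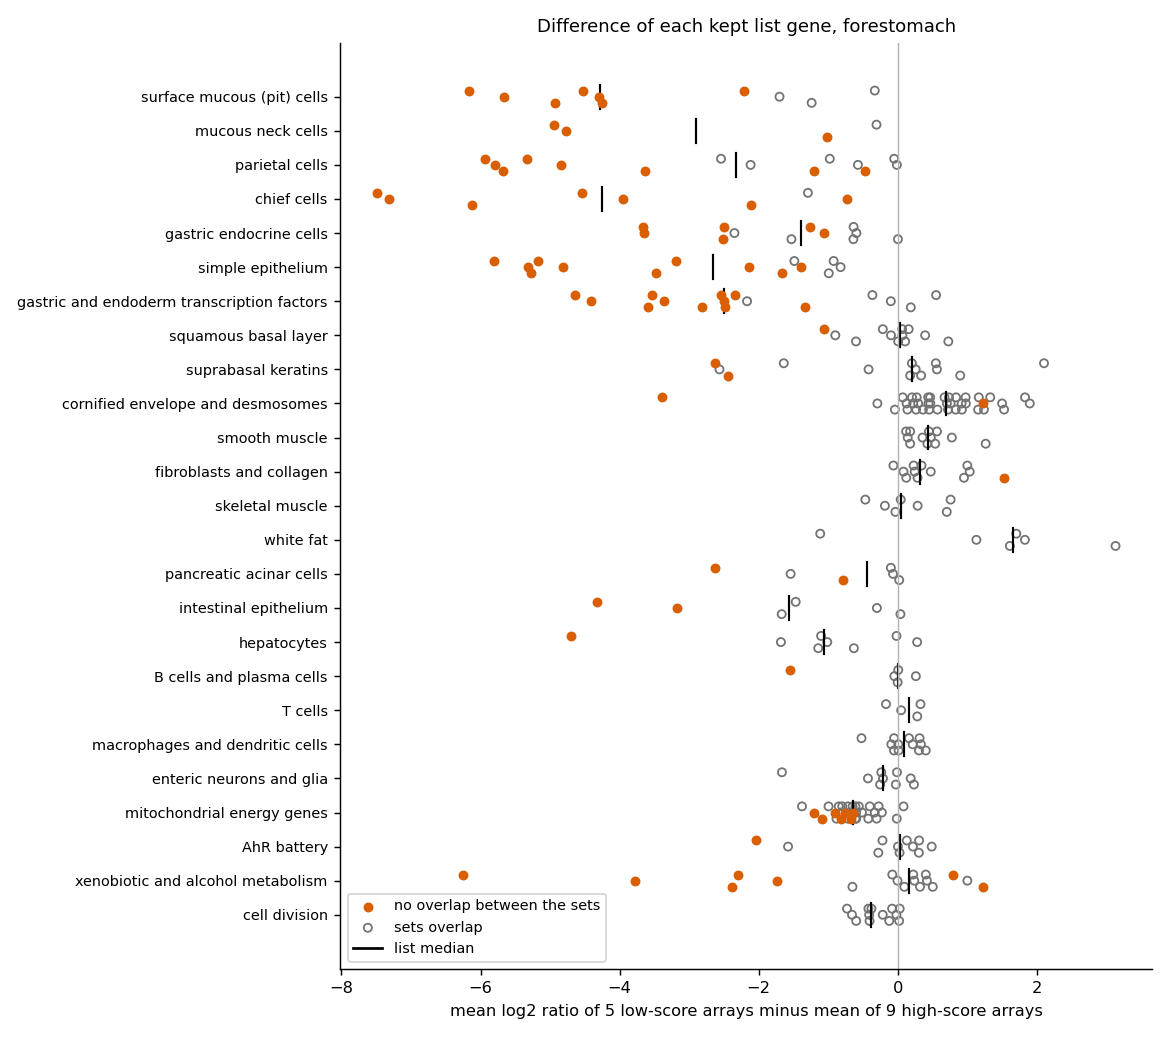
Mean log2 ratio of the 5 low-score arrays minus the mean of the 9 high-score arrays (horizontal axis) for each kept gene of 25 lists (rows), filled where the sets do not overlap, open where they do, with a black bar at the list median. The glandular lists lie to the left, with medians from -4.28 (pit) to -1.39 (endocrine), while squamous basal genes centre on 0.04 and white fat on 1.66.

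Basal squamous genes were present in both sets. Krt5, the keratin of basal cells, read 3.67 ± 0.12 (SD, n = 5) in the low-score and 3.67 ± 0.25 (SD, n = 9) in the high-score set, and Krt14 and Trp63 differed by 0.11 and 0.16. A second probe of Krt5 differed by 0.47 and one of Trp63 by 0.99, and both overlapped. The median difference of the basal-layer list was 0.04, and 0 of its genes were higher by at least 1 log2 unit with no overlap. Krt4, a keratin of maturing forestomach cells, read 6.37, 6.02, 6.34, 5.75 and 5.66 in mice 1, 4, 16, 20 and 11. In the high-score set it ran from 1.22 (mouse 12) to 6.63 (mouse 2), with both vehicle mice above 6 and every treated mouse below 5. Its mean difference was 2.10, but within D0 it was -0.24, and the software's own ratios gave 0.35. Cornified-envelope and desmosome genes followed Krt4: the median of 38 genes was 0.69 over all doses, -0.12 within D0, 1 was higher without overlap (Ppl, periplakin, 1.23) and 1 was lower (Dsc2, -3.39).

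Some genes of the squamous lists were lower in the low-score set. They were a minority: of 13 suprabasal keratins 2 were lower without overlap and 8 had a positive difference (median 0.20). Krt16 read 1.01, 0.90, 0.66, 0.68 and 2.65 in mice 1, 4, 16, 20 and 11, against 3.15 to 4.44 (median 3.72). Krt6a read 0.30, 0.11, -0.14, 0.17 and 1.37, against 1.99 to 3.35 (median 2.85). Krt16 and Krt6a are keratins of activated or healing squamous epithelium, and mouse 11 stood above the other low-score mice in both. Krt17, of the same group, differed by -2.56 but overlapped, since mouse 11 reached 3.43. Krt6a shares much sequence with Krt6b, so its probe may report both. Dsc2, a desmosomal cadherin, read 0.58, 0.58, 1.66, 0.69 and 2.14, against 3.03 to 5.44 (median 4.61). It is not particular to squamous cells, since it was well above background on 13 liver arrays, with a mean of 3.48 there.

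**Figure D4:**
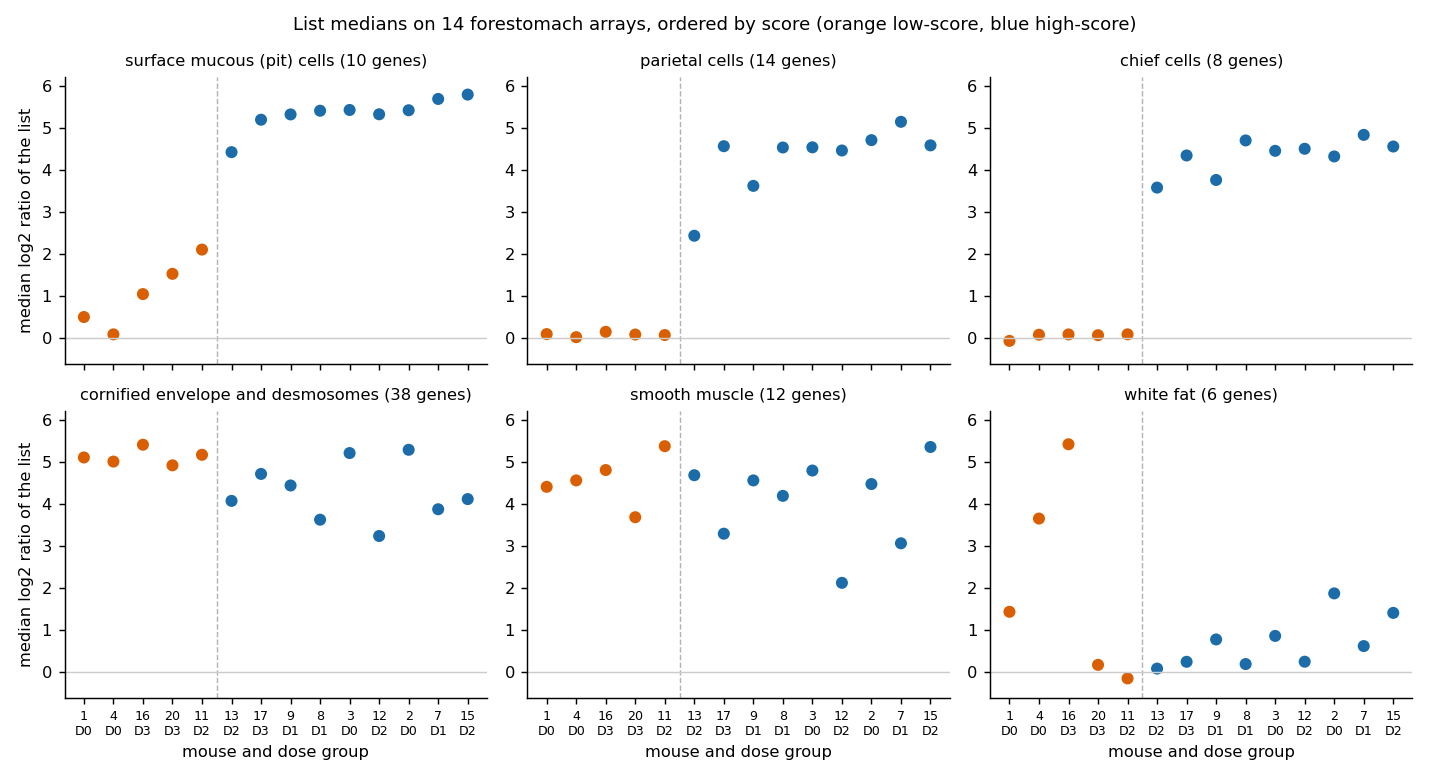
Median log2 ratio of 6 gene lists (vertical axes) on each forestomach array, ordered by score (horizontal axes, mouse and dose group; orange low-score, blue high-score). Parietal and chief medians are near 0 on every low-score array, pit medians reach 2.11 in mouse 11, white fat peaks at 5.42 in mouse 16 and the cornified median is lowest in high-score mouse 12 at 3.24.

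The 33 higher genes had smaller differences, and the leading 12 are named here. Acot1, an acyl-CoA thioesterase, read 5.10, 4.49, 4.30, 4.23 and 3.99 in mice 1, 4, 16, 20 and 11, against 0.55 to 3.94 (median 2.59), a difference of 1.92. Elovl6, a fatty acid elongase, differed by 1.80, Acsbg1 (an acyl-CoA synthetase) by 1.42 and Plin2 (a lipid droplet coat protein) by 1.33. For each of these 4 genes a vehicle mouse, 2 or 3, came nearest to the low-score set. Within D0 the differences were 0.99, 0.81, 0.93 and 0.85, smaller than within D3 at 2.24, 1.83, 1.33 and 1.63.
The others were Xlr4b (1.76) and Xlr3b (1.49) of an X-linked family, Hoxc6 (a homeobox factor, 1.58), Postn (periostin, a matrix protein, 1.53), Rassf5 (2.41 against 0.91), 4921531C22Rik (1.30), Arhgef10l (1.30) and Gpnmb (1.29). Acot1, Xlr3b and Xlr4b have near-identical family members and are uncertain as single genes. A second Xlr3b probe differed by 0.44 and overlapped.

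Several white fat genes were high on 3 of the 5 low-score arrays. Cfd (adipsin) read 4.82, 6.36 and 8.16 in mice 1, 4 and 16, and 0.00 in both mouse 20 and mouse 11, against -0.09 to 2.71 (median 0.52) in the high-score set. Adipoq (adiponectin) read 0.89, 2.87 and 5.60 in mice 1, 4 and 16, and was well above background on 3 of 5 low-score and 0 of 9 high-score arrays. Cidec, a lipid droplet protein of the same list, differed the other way (-1.11). It read 0.47, 2.55, 5.18, 0.19 and 0.18 in mice 1, 4, 16, 20 and 11, against 0.92 to 4.16 in the high-score set. The list median ran from -0.14 to 5.42 on the low-score and from 0.09 to 1.87 on the high-score arrays, and 0 of its 6 kept genes separated the sets. Acot1 and Elovl6 were also above the high-score range in mice 20 and 11, in mouse 11 only just, where Cfd and Adipoq were near 0. Without mice 11 and 20, 559 genes were lower and 51 higher.

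Lists of other cell types mostly overlapped. Smooth muscle (12 genes, median 0.44), skeletal muscle (7, 0.04), T cells (4, 0.17), macrophages and dendritic cells (12, 0.09) and enteric neurons and glia (9, -0.21) had 0 genes that separated the sets, and cell division genes (13, -0.38) likewise. Among fibroblast genes Postn alone was higher. B and plasma cell genes had 1 lower member of 5, Derl3 (an endoplasmic reticulum degradation factor, -1.55), while Jchain, the joining chain of antibodies, differed by 0.01. Of genes usually read as intestinal, Apoa1 (-4.32) and Reg3g (an antimicrobial lectin, -3.17) were lower, with Apoa4 and Lct overlapping. Of the liver list, Ttr (transthyretin, -4.70) was lower and Alb (albumin, -1.10) overlapped. Of the pancreatic acinar list, Cela1 (-2.63) was lower, and Prss2 (-1.54) overlapped. The medians of the intestinal, liver and pancreatic lists were -1.57, -1.06 and -0.44, with 5 of 6, 7 of 8 and 5 of 6 genes negative.
Mitochondrial energy genes were lower on average in 30 of 31 (median -0.65). Only Cycs (cytochrome c, -1.20) and Atp5g1 (an ATP synthase subunit, -1.09) passed 1 log2 unit without overlap. A second Cycs probe differed by -1.12 and overlapped.

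Among enzymes that handle foreign compounds, 5 of 18 were lower and 1 was higher. Sult1c2 (-6.24), Sult1d1 (-3.77), Cyp2b10 (-2.39), Gsto1 (-2.29) and Aldh1a3 (-1.74) were lower. Gstm1, a glutathione transferase, was higher, at 2.49 to 3.18 against 0.76 to 2.29. Of 11 genes of the aryl hydrocarbon receptor (AhR) battery, 1 was lower: Gsta1, another glutathione transferase, read 4.07, 3.60, 3.47, 3.72 and 3.79 in mice 1, 4, 16, 20 and 11, against 5.34 to 6.15 (median 5.75). Nqo1 (quinone reductase) differed by -1.58 and overlapped, and the list median was 0.03. Both glutathione transferases belong to families of similar sequence.

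No association of set membership with dose group or with slide was detected (Fisher's exact test, two-sided, p = 0.532 for each, adjusted p = 0.532 over 4 tests). The median log2 Cy3 signal was 5.84 in the low-score and 5.91 in the high-score set (exact permutation test over 2002 splits, two-sided, p = 0.104, adjusted p = 0.416). At the 75th percentile the difference was -0.0090 in place of -0.077 (exact permutation test, p = 0.837). The spike-in log ratio was 1.23 and 1.08 (exact permutation test, p = 0.332, adjusted p = 0.532). With 5 arrays against 9, these tests could have missed a moderate association, and all D1 arrays were high-score.

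In other organs of the same mice, which the score did not use, few probes passed the test. In lung, 5 mice against 9 with dose as a covariate gave 0 calls among 32695 probes (0%) by limma, where a call needs a 1.5-fold difference and a Benjamini-Hochberg adjusted p no higher than 0.05. Without adjustment, 2221 probes had p under 0.05. In liver, 5 mice against 7 gave 3 of 30449 probes (0.00985%), and 2279 probes had an unadjusted p under 0.05. In liver, 7 of 11 fibroblast and collagen genes (median -0.39) and 3 of 10 smooth muscle genes (median -0.52) were among those with an unadjusted p under 0.05, and the skeletal muscle list (7 genes, 1 of them so) had a median of -1.74. None of these passed the adjusted test. A probe of Rnf152, a ubiquitin ligase, read 2.25, 2.82, 2.55, 2.76 and 3.06 in mice 1, 4, 11, 16 and 20 and 1.54 to 2.10 in the 7 others (0.97, SE 0.11, limma adjusted p = 0.0350). An unnamed probe (A_55_P2051879) read 0.61 to 1.29 against -0.44 to 1.11, and a probe of Mrpl15, a mitochondrial ribosomal protein, read -1.35 to -0.86 against -1.10 to 0.19. With dose in the fit these differed by 1.19 (SE 0.12) and -1.02 (SE 0.10), each at a limma adjusted p of 0.0146. At the last 2 probes D1 mice 8 and 9 lay among the low-score mice. The second Mrpl15 probe differed by 0.18 (SE 0.10, limma adjusted p = 0.706). Leaving out single mice moved the liver count between 0 and 4, and it was 0 without mouse 2, 3, 4, 13 or 17.

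The labels, not the score, define treatment, so BkF (D1 to D3 pooled) was compared with vehicle inside each set. Within the high-score set, 7 BkF against 2 vehicle arrays gave 275 of 25305 probes (1.09%) by limma, 10 higher and 265 lower. By gene, 185 of 13360 were lower (1.38%) and 10 higher (0.0749%). The lower genes included products of late squamous differentiation. Tmprss11f, a serine protease of squamous epithelium, read 4.05 and 4.66 in vehicle mice 3 and 2 and 0.32 to 1.92 (median 1.31) in the BkF mice (-3.12, SE 0.35, limma adjusted p = 0.00556). Dsc1, a desmosomal cadherin of upper layers, read 3.96 and 4.50 against 0.51 to 2.01 (median 1.04). Rps6ka6, Esyt3, Klk6 (a kallikrein), Dsg1b (a desmoglein), Mreg, Sprr1b (an envelope precursor), Prr9, Krtap10-4 and Slc6a19 (an amino acid transporter) had the next smallest adjusted p, several of them tied, and all fell, at -1.61 to -2.84. A probe of Asah2, not the brightest of that gene, had the smallest adjusted p of all (-2.18, SE 0.22, limma adjusted p = 0.00393).
Of 38 cornified-envelope and desmosome genes, 4 fell, namely Sprr1b, Tgm1 (transglutaminase 1, -1.90), Spink5 (a protease inhibitor of skin, -1.46) and Ovol1 (a differentiation factor, -2.10), and 35 of 38 had a negative difference. A second probe of Tgm3, another member, was also called (-2.02, limma adjusted p = 0.0117). The median of that list was -0.99, against 0.01 over all genes. Other lists had negative differences with 0 genes called, with 8 of 8 liver genes (median -0.97), 9 of 9 enteric neuron and glia genes (-0.69), 12 of 12 smooth muscle genes (-0.57) and 13 of 13 suprabasal keratins (-0.62) below 0. With slide as a block the medians were 0.11, 0.14, 0.39 and -0.56, and that of the cornified list was -0.79. The part of these other cell types in the result was not tested. Krt4 did not pass (-3.22, SE 0.74, limma adjusted p = 0.0553). The levels of 5 pit and parietal genes chose these arrays, so nothing is read from the 0 calls in the pit, neck, parietal and chief lists. The 10 higher genes had differences of 0.60 to 0.98, led by Mgat4b (a glycosyltransferase), Ripk3 (a kinase of necroptosis) and Gsdme (a gasdermin).
Both vehicle mice of this set were on 1 slide, beside 1 BkF mouse. With slide as a block the count was 0 (Tmprss11f -2.49, limma adjusted p = 0.536), and against that BkF mouse alone Tmprss11f differed by -2.49 and the cornified median was -0.71. The count was also 0 when either vehicle mouse was left out, 93 without mouse 8, 156 without mouse 7 and 481 without mouse 15. With the software's ratios it was 1.

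Within the low-score set, 3 BkF against 2 vehicle arrays gave 0 of 25305 calls (0%) by limma, and 1330 probes had an unadjusted p under 0.05. The 3 BkF mice kept high squamous genes: Krt4 differed by -0.28, Tmprss11f by 0.31, Dsc1 by 0.14 and the cornified median by 0.04. These mice were D2 and D3, whereas the high-score BkF mice included 3 D1 mice, so the doses compared differ between the sets. The difference between the sets' BkF effects gave 0 calls (0%), with 3247 probes at an unadjusted p under 0.05 and a smallest adjusted p of 0.0866. For Tmprss11f it was 3.43 (limma adjusted p = 0.100), so a difference in the BkF effect was not shown for any gene. It rests on 2 vehicle mice in each set, and the count reached 157 without mouse 15 and 25 without mouse 20.

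Genes of the AhR battery did not pass in either set. Cyp1a1 and Ahrr were well above background on 0 of 2 low-score vehicle arrays, so the sizes of their differences within that set and between the sets depend on the background signal. Cyp1a1, the oxidase through which AhR agonists are usually read, was 0.60 and -0.39 in low-score vehicle mice 1 and 4 and 4.66, 2.08 and 2.65 in BkF mice 16, 20 and 11 (3.02, SE 1.18, limma adjusted p = 0.827). In the high-score set it was 0.38 and -0.01 in vehicle mice 2 and 3 and 0.12 to 4.78 (median 1.48) in the BkF mice (1.60, SE 1.04, limma adjusted p = 0.495). Every low-score BkF mouse thus lay above both vehicle mice of its set, whereas the high-score BkF values began between those of its 2 vehicle mice. Cyp1a1 was not well above background in high-score vehicle mouse 3 and BkF mice 7 and 9, so nothing is read from the order of those values. The doses differ, since the low-score BkF mice were D2 and D3 and the high-score ones included 3 D1 mice, 2 of which (mice 7 and 9) had the lowest Cyp1a1, at 0.12 and 0.13. Ahrr, the AhR repressor, was 0.04 and 0.05 in low-score vehicle mice and 1.07 to 2.04 in BkF mice (1.40, SE 0.33, limma adjusted p = 0.827). In the high-score set its difference was 0.20 (SE 0.29). The difference between the sets was 1.42 (SE 1.57) for Cyp1a1 and 1.21 (SE 0.44) for Ahrr, with limma adjusted p of 0.725 and 0.287. Cyp1b1, another AhR-induced oxidase, differed by 0.95 (SE 0.59) and 0.84 (SE 0.52) within the low-score and high-score sets. Tiparp and Aldh3a1 differed by less than 0.20 in either set, and Nqo1 by -0.40 and 0.43.

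**Figure D5:**
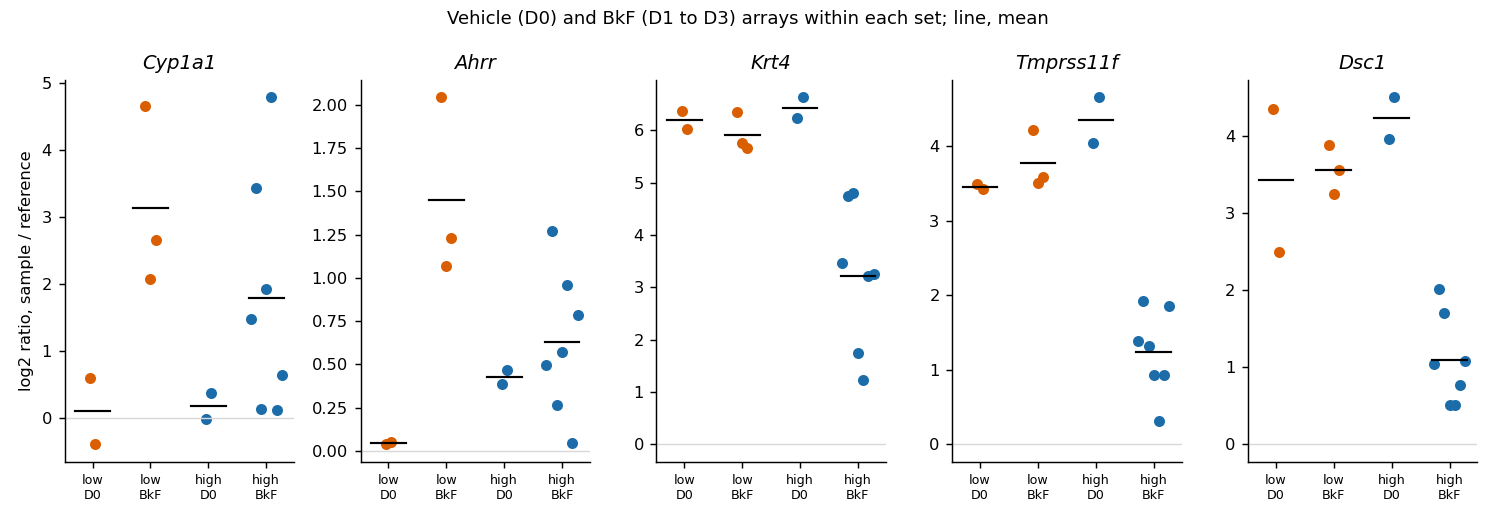
Log2 ratio (vertical axes, scale set for each gene) of 2 AhR genes and 3 squamous genes in vehicle (D0) and BkF (D1 to D3 pooled) mice of the low-score (orange) and high-score (blue) sets, with 1 point per array and a line at the mean. All values of Krt4, Tmprss11f and Dsc1 in high-score BkF mice lie below those of the other 3 groups, while Cyp1a1 and Ahrr are near 0 in low-score vehicle mice and higher in all 3 low-score BkF mice.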

How the data were processed

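The deposited files hold scanner output of 2-colour Agilent mouse arrays (59305 spots, 55681 probes), where the authors' Feature Extraction software (10.7.3.1 for forestomach and lung, 11.0.1.1 for liver) gave median signal intensity per channel and a log10 ratio. A table of the authors' LOWESS-normalized log2 ratios was used as an alternative for lung and forestomach. Its 13 liver columns did not correlate with the scanner ratios and were not used. The authors' statistical analysis (MAANOVA) was not used.

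Log2(rMedianSignal/gMedianSignal) was loess-normalized within each array with limma 3.58.1 in R 4.3.3, without background subtraction, and spots of a probe were averaged. Mean-signal columns are not analysed here, so normexp (offset 50) was run on medians as an alternative. Probes well above background on at least 3 forestomach or lung arrays (2 for liver) were kept. A gene is represented by its brightest probe. RefSeq (GRCm38.p6) tables named 26413 probes (47.4%). Sequences come from RefSeq's promoter table.

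The 5 and 9 arrays, the 25 gene lists and the searched letters were chosen with earlier results of these data known. Sets were described by means, ranges and overlap. Treatment, lung and liver were tested with limma (Benjamini-Hochberg adjusted p of at most 0.05, 1.5-fold), after the fits were tested on simulated data. P-values of the limma fits rest on the spread between mice, with D1 to D3 pooled for BkF. Those of the Cy3 and spike-in tests rest on the spread between arrays. Replicates are single mice, and the number of arrays limits the precision. Slide, software ratios, filters, fold, dose covariate and single arrays were varied. Named genes were the 6 markers, the 12 most negative and 12 most positive, the up to 4 largest and the smallest of each list, 6 AhR genes and up to 10 called genes by adjusted p. Other genes were named after their values were seen. The count of lower genes in the basal-layer list is not reported here.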

Additional observations from a re-analysis of the deposited data

Results flagged for a closer look

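Of 30 sets of values examined, 6 had 1 array standing apart from the rest of its set. Chance gives about 1 in 20, but the score, Gkn1, Atp4a and Atp4b chose the sets and are not independent, so the number is not read against that rate. Mouse 13 (D2) was apart in 4 of them: its score of 5.02 was the lowest of the high-score set (next 5.79), as were its Gkn1 at 2.94 (next 4.74), Atp4a at 3.85 (next 5.32) and Aldh3a1 at 1.98 (next 2.40). Atp4b in low-score mouse 16 read 0.47, above the next at 0.08, and Nqo1 in low-score mouse 1 read 2.91, above the next at 2.13.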

How the results depend on the processing

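The 5 lowest arrays were the same with normexp, the software's ratios and the authors' table, with gaps of 2.25 to 2.61. The main counts were 520 lower and 33 higher genes. Leaving out single arrays gave 493 to 692 lower and 27 to 77 higher. The lower count moved by over 1.5 times to 854 within D0, 1234 within D3, 1253 within slide 4 and 266 at 2 log2 units, where fewer arrays or a larger minimum were used. The higher count was 110 with software ratios, 66 within D0, 519 within D2, 588 within D3, 169, 227 and 1104 within slides 2, 3 and 4, 132 with slide as a block, 91 at 1.5-fold and 0 at 2 log2 units. In settings chosen after seeing the data it was 51 without mice 11 and 20 and 21 without the D1 arrays.

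Liver calls (3) went to 0 with software ratios or no dose covariate and ranged from 0 to 4 without single mice. BkF calls in the high-score set (275) were 1 with software ratios, 173 without the filter, 0 with slide as a block and 0 to 481 without single arrays. Calls in the low-score set (0) were 3 with software ratios and 0 to 3 without single arrays. For the difference between the sets (0) they were 1 with the authors' table and 0 to 157 without single arrays. The causes were not tested. Before loess the spike-in difference turned from 0.15 to -0.16.

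The authors' table was not run for liver. No paired analysis was possible because the groups compared within a tissue hold different mice and share no replicate numbers. With 2 vehicle mice a set, the precision of BkF effects is low, and dim probes limit small differences.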
